A study of Mus musculus with 15 samples.

Results

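The hypoxia-inducible factor (HIF) pathway was followed through 10 genes in the mouse trigeminal ganglion (TG), the ganglion that holds the cell bodies of the corneal sensory nerves. The genes were taken by symbol from the 55573 genes of the count table: the alpha subunits Hif1a, Epas1 and Hif3a, their partner Arnt, the prolyl hydroxylases Egln1, Egln2 and Egln3, the asparaginyl hydroxylase Hif1an, the ubiquitin ligase component Vhl, and the HIF target Bnip3. Of these, 9 passed the filter on low counts and were tested beside 16567 genes in all, while Hif3a did not pass and is described by its counts.

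RNA was sequenced from the right TG of male CD1 mice, 10 weeks old, whose right cornea had been wounded with a 2 mm trephine, with removal of the epithelium and the anterior stroma. All 3 groups therefore carried the same injury, and no uninjured ganglia were analysed here. Drops were given 3 times a day for 12 days, and the ganglia were taken on day 12, with 5 ganglia per group. The first group received vehicle. The second received resolvin D6 (RvD6), a dihydroxy product of the omega-3 fatty acid DHA, as the synthetic standard. The third received RvD6si, the stereoisomer that had been isolated from tears and culture medium of injured mouse corneas treated with pigment epithelium-derived factor and DHA. The concentration of either lipid in these drops was not given in the sources used here, so RvD6 and RvD6si are set side by side at the same time and schedule but not at a known equal dose.

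HIF is a pair of proteins, an alpha subunit and the stable partner ARNT. When oxygen is present, the EGLN prolyl hydroxylases mark the alpha subunit, VHL then binds it, and it is destroyed by the proteasome, while the asparaginyl hydroxylase encoded by Hif1an blocks its binding to coactivators. When oxygen falls, the alpha subunit persists, enters the nucleus and switches on genes for glucose uptake, glycolysis, vessel growth and mitophagy, and Egln1, Egln3 and Bnip3 are themselves among its known targets. Most of this control acts on the protein, which was not measured here, and the values given are messenger RNA levels.

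HIF binds DNA at a short core. ACGTG, taken here as the core, was searched on both strands of the RefSeq promoter windows (GRCm38.p6). The windows run from 250 bases before to 50 bases after each start. Other forms of the core were not searched, so unmarked sequence is not shown to lack them. A window was given for 9 of the 10 genes, all but Epas1, with 2 windows for Egln2. The core was in 5 of these 10 windows, each of a different gene, and in 19.6% of all 32851 windows. The 5 stretches are printed 5′ to 3′ along the gene because they let the core be compared between an alpha subunit, the prolyl hydroxylases and Bnip3. The capitals mark the core on either strand, and CACGTG holds overlapping matches, one on each strand.
Hif1a (chr12:73907692-73907841, plus strand): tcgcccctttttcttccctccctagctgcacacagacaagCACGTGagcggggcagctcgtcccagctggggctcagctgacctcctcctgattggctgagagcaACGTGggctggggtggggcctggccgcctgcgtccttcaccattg
Egln1 (chr8:124949278-124949362, minus strand): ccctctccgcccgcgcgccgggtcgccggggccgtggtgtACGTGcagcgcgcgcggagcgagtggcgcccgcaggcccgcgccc
Egln2 (chr7:27166761-27166890, minus strand): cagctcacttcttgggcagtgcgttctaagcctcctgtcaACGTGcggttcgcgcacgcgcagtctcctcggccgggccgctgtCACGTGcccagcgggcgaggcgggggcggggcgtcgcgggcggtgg
Egln3 (chr12:54204059-54204124, minus strand): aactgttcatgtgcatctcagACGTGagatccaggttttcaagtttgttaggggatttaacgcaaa
Bnip3 (chr7:138909569-138909654, minus strand): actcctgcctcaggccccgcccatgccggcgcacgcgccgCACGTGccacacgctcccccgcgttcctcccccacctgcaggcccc
Hif1a, Egln2 and Bnip3 each held the palindrome CACGTG, which began 135 bases before the start in Hif1a and 108 in Bnip3. In Egln2 a lone ACGTG lay 48 bases before the start and the palindrome lay nearer to it. The windows of Arnt, Hif3a, Hif1an and Vhl, and a second window of Egln2, did not hold these letters. A match is a description of the sequence and no evidence of binding.

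The libraries held 4125962 to 9903396 counted reads, with a median of 7756538. All 12 sensory neuron markers passed the filter, with summed levels of 12840 to 14780 CPM (counts scaled to a common library size) with vehicle. All skeletal muscle, neutrophil and precursor, and erythroid markers passed it too, so passing alone does not identify the tissue. With RvD6, all 12 skeletal muscle markers, all 12 neutrophil and precursor markers and all 9 erythroid markers were above vehicle at an unadjusted p under 0.05 by edgeR. Over all genes tested, 13.6% stood under that threshold in either direction. After adjustment edgeR called 0 of these markers, and DESeq2 called 10, 1 and 2 in the same order of lists. All 7 mural cell and all 8 fibroblast markers tested also had estimates above 0 with RvD6, and 11 of the 12 sensory neuron markers below 0. The muscle sum was 130 to 3391 CPM against 52.1 to 207 in vehicle and 39.0 to 83.8 with RvD6si. RvD6si replicate 15, the shallowest library, also stood apart, with 2090 CPM of the neutrophil and precursor markers against a median of 78.7 in its group. In whole ganglia, fewer cells of a type and less RNA per cell cannot be told apart.

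**Figure D1:**
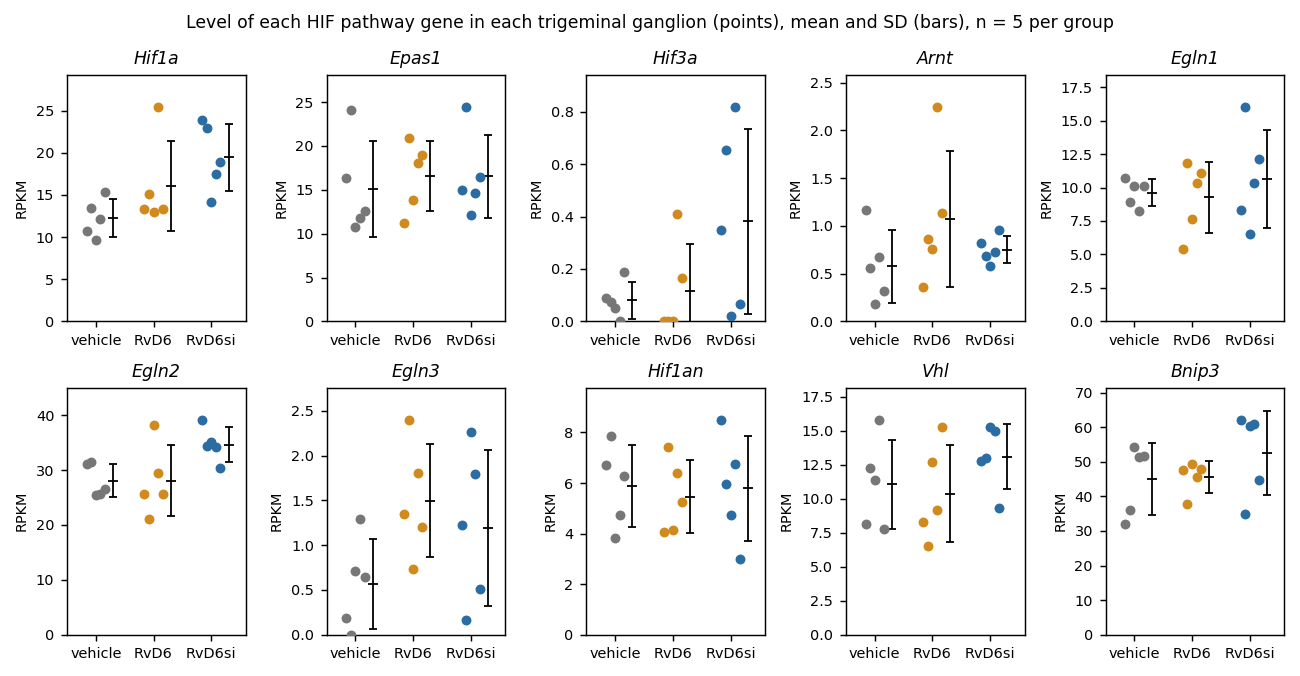
Level of each of the 10 genes in RPKM (CPM per kilobase of exon, vertical axes start at 0 and differ between panels) in every ganglion, one point each, by group, with the mean and SD beside the points (n = 5). The RvD6si points for Hif1a run from 14.2 to 23.9 RPKM and 4 of the 5 lie above every vehicle point, as do 4 of the 5 for Egln2.

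Of the 9 genes tested, 0 passed an adjusted p of 0.05 in any of the 3 comparisons by edgeR, the main test. For RvD6si against vehicle the background was 111 of 16567 genes called (0.670%), for RvD6 against vehicle 0 of 16567 (0%), and for RvD6si against RvD6 39 of 16567 (0.235%). At an unadjusted p under 0.05, edgeR gave 1 of the 9, Hif1a, for RvD6si against vehicle, where 16% of all genes stood under it. It gave 0 of 9 for both other comparisons, where 13.6% and 8.82% of all genes stood under it. DESeq2, run as an alternative, called Hif1a for RvD6si against vehicle, 1 of the 7 members it gave an adjusted p. There it called 920 of the 11321 genes it gave an adjusted p (8.13%), and it gave none to Hif3a, Arnt and Egln3. It called 0 of 10 members for RvD6 against vehicle, where it called 369 of 19190 such genes (1.92%). For RvD6si against RvD6 it called 0 of 10, where it called 185 of 19769 (0.936%). In none of the 3 comparisons did the 5 values of 1 group lie wholly above or below those of the other for any of the 9 genes, where 4.91%, 3.77% and 1.81% of all genes did for RvD6si against vehicle, for RvD6 against vehicle and for the stereoisomers in turn. Every comparison with vehicle shares the same 5 vehicle ganglia.

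Hif1a, the broadly expressed alpha subunit, had the lowest p-value of the 9 genes for RvD6si against vehicle. The gene lies at chr12:73901375-73947530 on the plus strand (GRCm38). Its level was 10.7, 13.4, 9.68, 12.1 and 15.4 RPKM in the vehicle ganglia and 23.9, 22.9, 14.2, 17.5 and 18.9 RPKM with RvD6si. Only RvD6si replicate 13, at 14.2 RPKM, lay within the vehicle range. With RvD6 the level was 13.4, 15.1, 12.9, 25.5 and 13.3 RPKM, so that 4 of these ganglia lay within the vehicle range and replicate 9 lay far above it, higher than any other ganglion of the study. In edgeR, Hif1a was 1.59-fold higher with RvD6si than with vehicle, a log2 fold change of 0.67 (SE 0.20, 95% interval 0.24 to 1.09), with p 0.00407 before adjustment and 0.112 after it. DESeq2 gave nearly the same size, 0.67, and an adjusted p of 0.0269. The difference was above 0 with each ganglion left out in turn, at 0.58 to 0.77, and the adjusted p by edgeR then ran from 0.0535 to 0.283. It was 0.55 with the trend on gene length removed and 0.56 with that on GC content removed (edgeR adjusted p 0.185 and 0.134).

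For RvD6 against vehicle, the log2 fold change of Hif1a was 0.39 (SE 0.20, interval -0.04 to 0.82, edgeR adjusted p 0.417). Without RvD6 replicate 9 it was 0.16 (edgeR adjusted p 0.812). That library also held the most muscle marker reads of the study, 3391 CPM, and with the muscle marker score as a covariate the difference for RvD6 was 0.04, while that for RvD6si against vehicle was 0.74 (edgeR adjusted p 0.986 and 0.0908). With the neutrophil and precursor score in its place they were 0.55 and 0.65 (edgeR adjusted p 0.688 and 0.140). The direct difference between the stereoisomers, RvD6si against RvD6, was 0.28 (SE 0.20, interval -0.15 to 0.70, edgeR adjusted p 0.749), and 0.51 without that replicate (edgeR adjusted p 0.326). It was 0.71 with the muscle score and 0.10 with the neutrophil and precursor score as a covariate. All markers of both scores were above vehicle with RvD6. These fits therefore cannot tell marker content and treatment apart, here or for the genes below. The part of marker content in the level of Hif1a was not tested. The interval of the main fit for the stereoisomers held both no difference and a 1.63-fold higher level with RvD6si. Of the exonic bases of Hif1a, 478, or 8.11%, also belong to the predicted genes Gm15283 and Gm49321, and reads that touched more than one gene were not counted.

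Epas1, the alpha subunit that is prominent in vessels and some glia, had group means closer together than Hif1a. The gene lies at chr17:86753700-86833410 on the plus strand. Its levels were 16.4, 24.1, 10.8, 11.7 and 12.6 RPKM with vehicle, 11.2, 20.9, 13.8, 18.1 and 18.96 with RvD6, and 15.0, 24.5, 12.1, 14.6 and 16.5 RPKM with RvD6si. The 3 groups covered almost the same range, each with 1 ganglion above 20 RPKM. The log2 fold change was 0.13 for RvD6si against vehicle (interval -0.37 to 0.63, edgeR adjusted p 0.842) and 0.13 for RvD6 against vehicle (-0.37 to 0.63, edgeR adjusted p 0.857). The endothelial markers summed to 217 to 315 CPM with vehicle, 217 to 292 with RvD6 and 204 to 232 with RvD6si, and their part in the level of Epas1 was not tested.

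Hif3a, the least abundant alpha subunit, whose products include inhibitors of the other alpha subunits, was near the limit of detection. The gene lies at chr7:17031507-17062427 on the minus strand. It had 6, 4, 3, 0 and 11 counts in the vehicle ganglia, 0, 0, 0, 16 and 8 with RvD6, and 15, 40, 1, 38 and 2 with RvD6si. The 2 highest counts, 40 and 38, came from RvD6si ganglia, yet 2 ganglia of that group held 1 and 2 counts. With no filter on low counts, edgeR gave a log2 fold change of 2.23 (SE 1.17) for RvD6si against vehicle, with p 0.0659 before adjustment and 0.411 after it.

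Arnt, the common partner of the alpha subunits, was low and variable. The gene lies at chr3:95434388-95497240 on the plus strand and had 13 to 105 counts per library. Its level was 1.17, 0.559, 0.181, 0.669 and 0.315 RPKM with vehicle, 0.366, 0.858, 0.754, 2.25 and 1.13 with RvD6, and 0.817, 0.687, 0.576, 0.722 and 0.962 with RvD6si. The RvD6si ganglia all lay inside the vehicle range and were the most even, with a coefficient of variation of 19.3% against 66.1% and 66.5% in the vehicle and RvD6 groups. The log2 fold change was 0.88 for RvD6 against vehicle (SE 0.48, interval -0.13 to 1.89, edgeR adjusted p 0.442), 0.42 without RvD6 replicate 9, 0.15 with the muscle marker score as a covariate and 0.95 with the neutrophil and precursor score. Its neural relative Arnt2, which also pairs with alpha subunits, was far more abundant, at 6.80 RPKM on average with vehicle against 0.579 for Arnt. Arnt2 stood at 7.84 RPKM with RvD6 and 7.83 RPKM with RvD6si, and its log2 fold change was 0.21 for RvD6si and 0.20 for RvD6 against vehicle (edgeR adjusted p 0.677 and 0.704).

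Egln2 was the most abundant of the 3 prolyl hydroxylases and the second gene by p-value for RvD6si. The gene lies at chr7:27158658-27166802 on the minus strand. Its level was 31.2, 31.5, 25.5, 25.7 and 26.5 RPKM with vehicle, and 39.1, 34.4, 35.2, 34.2 and 30.3 RPKM with RvD6si. As for Hif1a, 4 of the 5 RvD6si ganglia lay above every vehicle ganglion, and the exception here was replicate 15. With RvD6 it was 25.7, 21.03, 38.2, 29.6 and 25.7 RPKM, on both sides of the vehicle range. The log2 fold change was 0.30 for RvD6si against vehicle (SE 0.15, interval -0.02 to 0.63, edgeR adjusted p 0.342) and 0.00 for RvD6 against vehicle (interval -0.32 to 0.32, edgeR adjusted p 0.995). Between the stereoisomers it was 0.31 (SE 0.15, interval -0.02 to 0.63, edgeR adjusted p 0.586), and all 5 RvD6si ganglia lay above the RvD6 median. With the muscle score as a covariate, Egln2 was at -0.41 for RvD6 against vehicle and 0.79 between the stereoisomers, and with the neutrophil and precursor score at 0.21 and 0.07.

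Egln1, the main oxygen sensor of most tissues, lies at chr8:124908587-124949324 on the minus strand. Its mean level was 9.63 ± 1.02 RPKM with vehicle, 9.26 ± 2.67 with RvD6 and 10.7 ± 3.66 with RvD6si (SD, n = 5). The means lay close together, and the RvD6 and RvD6si ganglia, at 5.40 to 11.8 and 6.52 to 16.03 RPKM, spread on both sides of the vehicle range of 8.22 to 10.7. The log2 fold change was 0.15 for RvD6si and -0.06 for RvD6 against vehicle (intervals -0.36 to 0.65 and -0.56 to 0.45, edgeR adjusted p 0.816 and 0.947).

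Egln3, the prolyl hydroxylase most strongly induced by hypoxia in many cells, was the scarcest of the family. The gene lies at chr12:54178981-54203860 on the minus strand. It had 5, 0, 17, 25 and 15 counts with vehicle, 33, 52, 10, 28 and 23 with RvD6, and 21, 4, 47, 33 and 6 with RvD6si. The vehicle counts never passed 25, while 3 RvD6 and 2 RvD6si ganglia were above that. Its log2 fold change was the largest in size of the 9 genes and the least certain: 1.40 for RvD6 against vehicle (SE 0.78, interval -0.24 to 3.04, edgeR adjusted p 0.451) and 1.08 for RvD6si against vehicle (SE 0.78, interval -0.56 to 2.71, edgeR adjusted p 0.533). The RvD6 libraries are those with more muscle and blood cell markers. With the muscle score as a covariate the difference for RvD6 was 1.33, and with the neutrophil and precursor score 1.31.

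Hif1an and Vhl also hold the alpha subunits down, Vhl in the step after prolyl hydroxylation, and neither passed the test in any comparison. Hif1an (chr19:44562850-44576274, plus strand) stood at 5.88 ± 1.61 RPKM with vehicle, 5.46 ± 1.45 with RvD6 and 5.79 ± 2.08 with RvD6si (SD, n = 5). Its log2 fold changes were -0.02 for RvD6si and -0.11 for RvD6 against vehicle and 0.09 between the stereoisomers, with intervals of -0.57 to 0.53, -0.66 to 0.45 and -0.47 to 0.64. Vhl (chr6:113623959-113631633, plus strand) stood at 11.0 ± 3.28, 10.4 ± 3.55 and 13.1 ± 2.39 RPKM in the same order of groups. With RvD6si, 4 of 5 ganglia lay between 12.8 and 15.3 RPKM, and replicate 15 lay at 9.30, inside the vehicle range of 7.77 to 15.8. The log2 fold change of Vhl was 0.25 for RvD6si against vehicle (edgeR adjusted p 0.678) and 0.34 for RvD6si against RvD6 (interval -0.18 to 0.85, edgeR adjusted p 0.750).

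Bnip3, a mitophagy receptor and a known HIF target like Egln1 and Egln3, was the most abundant gene of the set. It lies at chr7:138890836-138909519 on the minus strand. Its level was 31.9, 36.0, 54.3, 51.5 and 51.5 RPKM with vehicle, 47.6, 37.8, 49.3, 45.6 and 47.9 with RvD6, and 62.1, 35.0, 60.4, 61.0 and 44.7 with RvD6si. With RvD6si, 3 ganglia lay above every vehicle ganglion and the other 2 lay among them. The log2 fold change was 0.23 for RvD6si against vehicle (SE 0.18, interval -0.16 to 0.61, edgeR adjusted p 0.589) and 0.02 for RvD6 against vehicle (interval -0.37 to 0.40, edgeR adjusted p 0.976). An antisense gene, Gm45507, shares 504 exonic bases, or 22.3%, of Bnip3. The libraries kept no strand, so reads from that stretch were left out of both. The related mitophagy receptor Bnip3l had a log2 fold change of 0.20 for RvD6si and 0.20 for RvD6 against vehicle (edgeR adjusted p 0.536 and 0.586).

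**Figure D2:**
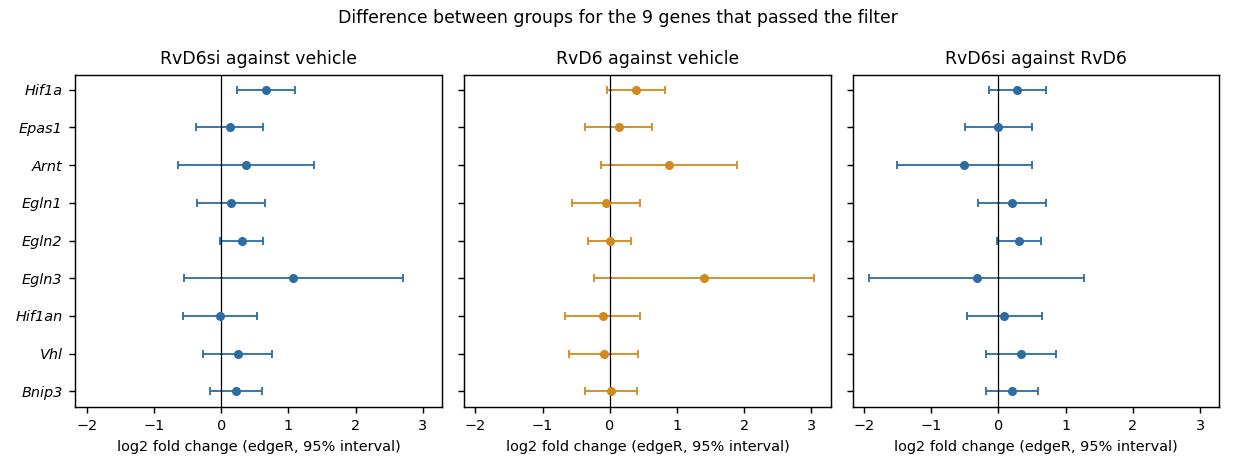
Log2 fold change by edgeR (horizontal axis, the same in each panel) of the 9 tested genes in the 3 comparisons. Points are estimates and bars are 95% intervals. For RvD6si against vehicle the bar of Hif1a, from 0.24 to 1.09, is the one that stays clear of 0, and every bar for RvD6 against vehicle and for RvD6si against RvD6 crosses it.

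Of the 9 estimates for RvD6si, 8 were above 0 against vehicle, with a median of 0.25, where 51.2% of all genes were above 0 and their median was 0.02. For RvD6 against vehicle 5 of the 9 were above 0, with a median of 0.02 against 0.02 for all genes. For RvD6si against RvD6 6 of the 9 were above 0, with a median of 0.21 against -0.00 for all genes. Between the stereoisomers, all 9 intervals included 0. They were narrowest for Egln2, Bnip3 and Hif1a and widest for Egln3, which ran from -1.92 to 1.27.

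The balance between members was followed as a log2 ratio of counts per kilobase within each ganglion. Depth cancels in such a ratio, but not fully where a constant is added to the counts, as for Egln3 to Egln1 below. The ratio of Epas1 to Hif1a was 0.26 ± 0.47 with vehicle, 0.06 ± 0.44 with RvD6 and -0.25 ± 0.27 with RvD6si (SD, n = 5). Epas1 was thus the higher of the pair in 3 of 5 vehicle ganglia and in 1 of 5 RvD6si ganglia. The difference for RvD6si against vehicle was -0.51 (exact permutation test, two-sided p 0.0794, adjusted p 0.238 over 6 comparisons). For Egln3 to Egln1, with 0.5 added to each count because Egln3 was at 0 in vehicle replicate 2, it was -4.93 ± 2.32 with vehicle, -2.65 ± 0.57 with RvD6 and -3.53 ± 1.94 with RvD6si. RvD6 against vehicle differed by 2.27 (exact permutation p 0.0317, adjusted p 0.190), and by 1.36 without vehicle replicate 2. The other 4 comparisons had exact permutation p-values of 0.190 to 0.484, and the smallest that 5 against 5 ganglia allow is 0.00794.

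**Figure D3:**
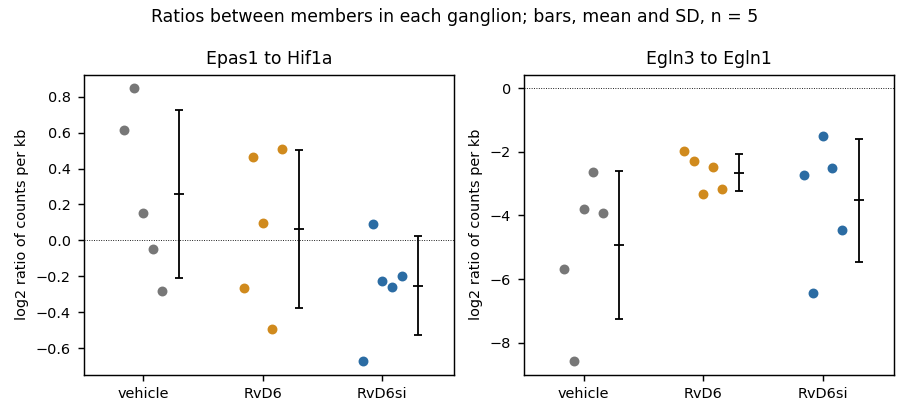
Log2 ratio of counts per kilobase (vertical axes) of Epas1 to Hif1a and of Egln3 to Egln1 in each ganglion, one point each, with the mean and SD (n = 5). Of the RvD6si ganglia, 4 of 5 have less Epas1 than Hif1a, and the lowest vehicle point for Egln3 to Egln1 is the ganglion with no Egln3 count.

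By mean RPKM the vehicle group ran Bnip3, Egln2, Epas1, Hif1a, Vhl, Egln1, Hif1an, Arnt, Egln3 and Hif3a, from 45.0 to 0.0804 RPKM. Neighbours whose 5 values did not overlap were Bnip3 and Egln2, Egln2 and Epas1, Egln1 and Hif1an, and Hif1an and Arnt. The other 5 neighbouring pairs overlapped. With RvD6si the order differed in 2 places, Hif1a standing above Epas1 (19.5 against 16.5 RPKM) and Egln3 above Arnt (1.19 against 0.753), and both of these pairs overlapped. With RvD6, Egln3 also stood above Arnt (1.496 against 1.07), with overlap. In every group Hif1an was clear of the next gene below it, so that Arnt, Egln3 and Hif3a formed a low tier.

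The wider pathway was read from 3 lists: 18 partners and regulators, 20 glycolytic targets and 27 other targets, of which 18, 20 and 20 passed the filter. By edgeR none was called in any comparison in either direction. The counts at an unadjusted p under 0.05 follow, with those by DESeq2. They were, with RvD6si against vehicle, 2 up and 1 down of 18 partners, 5 up and 4 down of 20 glycolytic targets, and 2 up and 2 down of 20 other targets, with medians of 0.05, -0.04 and 0.01 against 0.02 for all genes. Over all genes tested, 16% stood under that threshold. DESeq2 called 1 of the partners up, Cul2, and 1 of the glycolytic targets up, Slc2a3. Of the other targets it called 1 up, Bhlhe40, and 1 down, Angptl4. It gave no adjusted p to Cited4, Siah2, Hk2, Slc16a3, Adm, Ankrd37, Plod2, Ak4, Loxl2 and Edn1. Of all the genes it gave an adjusted p it called 8.13%, and the share in the lists was near that.

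Cul2, the cullin of the VHL ubiquitin ligase, stood at 60.7 ± 8.76 CPM with vehicle, 68.7 ± 15.6 with RvD6 and 104 ± 29.7 with RvD6si (SD, n = 5), a log2 fold change of 0.77 for RvD6si against vehicle (SE 0.20, edgeR adjusted p 0.0714, DESeq2 0.00686). Slc2a3, the neuronal glucose transporter, stood at 30.3, 36.1 and 54.6 CPM in the same order of groups (log2 fold change 0.85, edgeR adjusted p 0.0639, DESeq2 0.00473). Bhlhe40, a transcriptional repressor induced by hypoxia, stood at 5.30, 10.9 and 15.2 CPM (log2 fold change 1.52, edgeR adjusted p 0.0631, DESeq2 0.00280). Angptl4, a secreted inhibitor of lipoprotein lipase, went the other way, at 81.0, 53.3 and 48.8 CPM (log2 fold change -0.73, edgeR adjusted p 0.0918, DESeq2 0.0144).

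The glycolytic targets did not share one direction, with 9 of 20 estimates above 0 and 11 below for RvD6si against vehicle. Most of the more abundant ones were below vehicle, and Pkm was above it. For RvD6si against vehicle the abundant Ldha, which turns pyruvate into lactate, stood at 736 CPM with vehicle and 581 CPM with RvD6si (log2 fold change -0.34, edgeR adjusted p 0.236). Pgk1, which makes ATP in glycolysis, stood at 217 and 186 CPM (-0.22, edgeR adjusted p 0.4998). Pkm, the last enzyme of the path, stood at 397 and 498 CPM (0.33, edgeR adjusted p 0.303). Pdk1, a kinase that inhibits pyruvate dehydrogenase, stood at 16.7 and 22.8 CPM (0.46, edgeR adjusted p 0.444). For RvD6 against vehicle, 3 glycolytic targets were above and 8 below vehicle at an unadjusted p under 0.05, where 13.6% of all genes stood under it, and the median was -0.25 against 0.02 for all genes. The glucose transporter Slc2a1 stood at 82.5 CPM with RvD6 against 124 with vehicle (log2 fold change -0.59, edgeR adjusted p 0.154, DESeq2 0.0305), and the muscle hexokinase Hk2 at 2.40 against 0.294 CPM (2.94, edgeR adjusted p 0.114, DESeq2 0.0126). Hk2 stood at 1.51 CPM with RvD6si (log2 fold change 2.30 against vehicle, edgeR adjusted p 0.112, none given by DESeq2). It was scarce in all 3 groups, and near the limit of detection with vehicle. The sensory neuron markers summed to 7821 to 13660 CPM with RvD6 against 12840 to 14780 with vehicle. The muscle markers were higher than vehicle with RvD6 and not with RvD6si. The part of either in these values was not tested.

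Among the other targets for RvD6 against vehicle, 1 was above and 2 were below vehicle at an unadjusted p under 0.05 by edgeR. Of the partners, 0 were above and 3 below. Over all genes tested, 13.6% stood under that threshold. DESeq2 called 1 of the other targets, Higd1a, down, and 0 of the partners, where it called 1.92% of the genes it gave an adjusted p. Medians were 0.11 for the partners and -0.03 for the other targets. For RvD6si against RvD6, 1, 3 and 1 genes of the 3 lists were above and 1, 0 and 0 below at that threshold. Over all genes tested, 8.82% stood under it. The medians of the 3 lists were -0.01, 0.12 and 0.14 against -0.00 for all genes. DESeq2 called 0, where it called 0.936% of the genes it gave an adjusted p. P4htm, a transmembrane prolyl hydroxylase that also acts on the alpha subunits, stood at 93.8, 72.5 and 76.1 CPM with vehicle, RvD6 and RvD6si (edgeR adjusted p 0.380 for RvD6si and 0.329 for RvD6 against vehicle). Ankrd37, a small HIF target, stood at 1.62, 2.04 and 0.954 CPM (edgeR adjusted p 0.669 and 0.879). Vegfa, the vessel growth factor, had 0 to 10 counts per library and did not pass the filter.

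**Figure D4:**
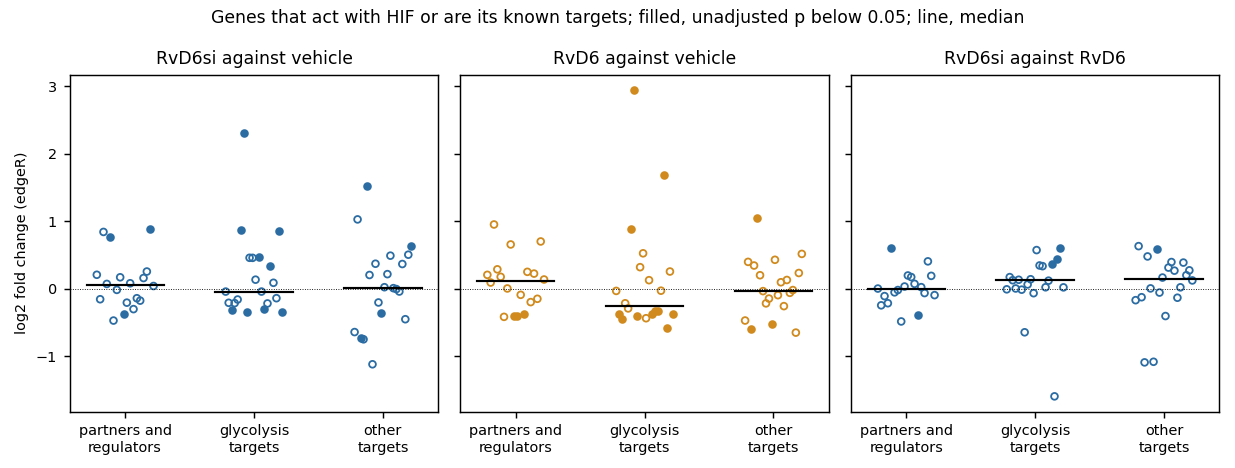
Log2 fold change by edgeR (vertical axis) of the tested genes of the 3 pathway lists in the 3 comparisons, one point per gene. Filled points had an unadjusted p under 0.05 and lines are medians. The medians lie near 0 in most columns, and for RvD6 against vehicle that of the glycolytic targets is -0.25.

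The genes most like each member were found by Pearson correlation of log2 CPM over the 15 ganglia among all genes tested. These values describe libraries that share depth and tissue makeup, and the highest among so many genes is high by selection. For Hif1a they were Ehd1 (r = 0.92) and Rab1a (0.91), both of membrane traffic, and for Bnip3 M6pr (0.92) and Rab7 (0.92), of the late endosome. Epas1 went with Me1 (0.90), malic enzyme, and Fa2h (0.88), a myelin lipid enzyme. Among members, Epas1 and Bnip3 ran most against each other (r = -0.69). The others were Firre (0.89) and Sipa1l2 (0.84) for Arnt, Cetn4 (0.88) and AC127249.1 (0.84) for Egln1, and Adgrb1 (0.80) and Myh14 (0.79) for Egln2. For Egln3 they were Fam114a1 (0.89) and Sppl2a (0.87), for Hif1an Kctd1 (0.83) and Kcna1 (0.81), and for Vhl Insig1 (0.80) and Ubac2 (0.80). By rank, Egln3 and Sppl2a were less alike (Spearman rho 0.58). Cetn4 and Adgrb1 were scarce, at 1.25 and 2.02 CPM on average.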

How the data were processed

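Libraries were made from 1 ng of total RNA per TG by an adapted Smart-seq2 protocol, which keeps no strand. The authors aligned reads with Rsubread to GRCm38 and counted them per gene with featureCounts. The deposited table holds raw counts per gene and exonic length, and its header gives featureCounts 1.5.0-p1 where the study's notes give Subread 1.6.5. Counting used GENCODE M22, and symbols came from M21 and matched 55394 of 55573 genes. All 15 columns were used. No pair of samples within a group agreed within sampling noise. The labels do not say whether samples of a group came from separate mice, and p-values measure the spread between these samples.

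Counts were filtered with filterByExpr (minimum count 10, total 15), scaled by TMM and fitted in edgeR 4.0.16 (R 4.3.3) by the quasi-likelihood test with all 3 groups in 1 model, with Benjamini-Hochberg adjustment at 0.05. Intervals of 95% used the SE from the F statistic. DESeq2 1.42.0 with NA adjusted p kept as NA, RLE scaling, other filters, length and GC trends, marker scores as covariates and leaving out each sample were alternatives; with no genome given, GC was that of the longest transcript. The script was tested on simulated data. Ratios used exact permutation tests (SciPy 1.17.1).

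The members and the gene lists were chosen with earlier results of these data known. Genes named were the 10 members, Vegfa, Slc2a1, Ldha, Pgk1, Pdk1, Ankrd37, Arnt2, Cul2, Bnip3l, P4htm, list genes called in any comparison, and the 2 genes most alike each member by correlation; Pkm, Hk2, Slc2a3, Bhlhe40, Angptl4 and Higd1a were named after their values were seen. Marker lists covered sensory neurons, satellite glia, Schwann, endothelial and mural cells, fibroblasts, macrophages, skeletal muscle, erythroid cells, neutrophils with precursors, and pituitary.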

Additional observations from a re-analysis of the deposited data

Results flagged for a closer look

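Hif1a in RvD6 replicate 9 stood at 150 CPM, while the other 4 RvD6 ganglia lay between 76.2 and 89.2 CPM. The gap was 0.824 of the whole range, above Dixon's critical value of 0.71 for 5 samples. In all, 36 sets of 5 values were examined and 1 passed, where chance flags about 5% of them. The same library had the highest Arnt level of the study, 17.99 CPM, the most muscle marker reads, 3391 CPM, and the fewest sensory neuron marker reads, 7821 CPM.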

How the results depend on the processing

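For RvD6si against vehicle, the genes called by edgeR, 111 in the main fit, numbered 920 by DESeq2 with all samples and 979 with 2 groups, 315 with at least 10 counts in every sample, 67 with the length trend removed and 58 with the neutrophil and precursor score. Leaving out 1 sample gave 0 (without RvD6si replicate 11) to 229 (without RvD6 replicate 9), and 6 to 13 without any 1 vehicle replicate, 9 without RvD6si replicate 14, 68 without replicate 13 and 168 without replicate 12. For RvD6 against vehicle, 0 became 369 and 664 by DESeq2, 38 by edgeR with 2 groups, 56 with no filter, 24 with at least 10 counts in every sample and 2 with either marker score. Leaving out 1 sample gave 0 to 51 (without RvD6si replicate 15), 17 without RvD6 replicate 7 and 1 without vehicle replicate 2. For RvD6si against RvD6, 39 became 185 and 182 by DESeq2, 17 with 2 groups, 59 with no filter, 23 with at least 10 counts in every sample and 2 with either score. Leaving out 1 sample gave 2 (without RvD6si replicate 11, 13 or 14) to 156 (without RvD6si replicate 15), 13 without RvD6 replicate 8 or 9 and 25 without RvD6 replicate 10. The causes were not tested.

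Of the log2 fold changes of the 9 members, the call changed only for Hif1a in RvD6si against vehicle, at 0.67 by DESeq2 with all samples and 0.68 with 2 groups (adjusted p 0.0269 and 0.00776). With 1 sample left out 30 values changed sign and 375 did not, and under the other alternatives 23 did and 244 did not. None that changed sign was a call. For RvD6 against vehicle, Egln2 turned to 0.0079 and 0.0034 by DESeq2, 0.0092 with RLE, 0.031 with at least 10 counts, 0.027 without the length trend, 0.076 without the GC trend and 0.21 with the precursor score (-0.14 to 0.084 with 1 sample left out, given in brackets from here on), Egln1 to 0.0035 without the GC trend and 0.19 with the muscle score (-0.16 to 0.084), Bnip3 to -0.081 and -0.094 (-0.092 to 0.094), Hif1an to 0.012 with the muscle and 0.48 with the precursor score (-0.24 to 0.019), Vhl to 0.066 (-0.28 to 0.066). For RvD6si against RvD6, Epas1 turned to 0.013 with 2 groups, 0.026 with no filter and 0.010 without the GC trend (-0.19 to 0.096), Arnt to 0.43 and Egln1 to -0.097 with the muscle score, Hif1an to -0.058 with the muscle and -0.60 with the precursor score (-0.087 to 0.25). For RvD6si against vehicle, Hif1an turned to 0.00090 with 2 groups, 0.0021 with no filter and 0.056 without the GC trend (-0.20 to 0.14), and with 1 sample left out Egln1 ran from -0.048 to 0.28 and Epas1 from -0.057 to 0.36. The ratios kept their direction and side of the threshold under every alternative run. With RLE-scaled RPKM no member changed rank, and the neighbouring pairs whose values did not overlap numbered 3 in place of 2 with RvD6. No paired analysis was possible because the labels number the samples 1 to 15 with no number in common between groups. Depth limits Hif3a, Egln3 and Arnt, which had 0 to 105 counts per library.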

Other observations

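The other marker lists that were followed are given as summed CPM. Satellite glia markers stood at a median of 8643 with vehicle, 7067 with RvD6 and 7399 with RvD6si, and Schwann cell markers at 19480, 17300 and 17340. Fibroblast markers stood at 1503, 1871 and 1594, macrophage markers at 132, 148 and 120, and mural cell markers at 123, 203 and 125. Pituitary markers ran from 9.97 to 3756 with vehicle, 226 to 2321 with RvD6 and 20.1 to 671 with RvD6si. Erythroid markers ran from 2384 to 5069 with vehicle, 5760 to 10660 with RvD6 and 936 to 12030 with RvD6si.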
